A study of Mus musculus with 14 samples.

Results

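The genes of MHC class II antigen presentation were followed in the liver of male and female mice aged 3, 4 or 8 wk. The set comprised 8 genes, H2-Aa, H2-Ab1, H2-Eb1, H2-DMa, H2-DMb1, Cd74, Ciita and Ctss, out of 19,751 genes that could be named on the array. They were taken as the probes whose RefSeq accession maps to these symbols, and each gene had 1 such probe. RNA came from untreated mice of the outbred CD-1 strain, the labels naming no allele or agent for any group. The groups were 3 wk, 4 wk and 8 wk male liver (M3, M4 and M8) and 3 wk, 4 wk and 8 wk female liver (F3, F4 and F8). Each group was represented by 2 pools, of 5 mice each at 3 wk and of 6 mice each at 4 and 8 wk, so that the values describe pools and not single mice. Pools were set against each other on 14 two-colour arrays in 7 comparisons, with 2 arrays and exchanged dyes in each. The sexes were compared at each age (M3/F3, M4/F4, M8/F8), and 8 wk liver was compared with each younger age within males (M8/M3, M8/M4) and within females (F8/F3, F8/F4).

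MHC class II molecules are heterodimers of an alpha and a beta chain that carry peptides from endosomes to the surface of antigen presenting cells, where CD4 T cells read them. The newly made dimer is held by the invariant chain (Cd74), which cathepsin S (Ctss) trims to a short fragment, and H2-DM (H2-DMa with H2-DMb1) exchanges this fragment for a peptide. Ciita is the coactivator that is recruited to the promoters of these genes by factors bound to the X and Y boxes. In liver, dendritic cells, B cells and Kupffer cells are known carriers of class II, and sinusoidal endothelium carries it at a lower level.

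H2-Aa, H2-Ab1, H2-Eb1, H2-DMa and H2-DMb1 lie together on chromosome 17 between positions 34119693 and 34316674 of GRCm38.p6, whereas Ctss is on chromosome 3 and Ciita on chromosome 16. The promoters of H2-Aa, H2-Eb1 and H2-DMb1 are shown because they held the arrangement by which class II genes are known. These were 3 of the 5 genes of the set for which a promoter window was available. No window was available for H2-Ab1, Cd74 and Ciita, so these genes were not searched. Capitals mark 8 letters of the form CTNGNAAC, as in the X box, and TGATTGG, as in the Y box. Sequences are from RefSeq, build GRCm38.p6, 5′ to 3′ on the strand of the gene.

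H2-Aa, chr17:34287857-34287917, minus strand: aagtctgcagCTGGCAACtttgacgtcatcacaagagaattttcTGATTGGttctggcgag
H2-Eb1, chr17:34305763-34305822, plus strand: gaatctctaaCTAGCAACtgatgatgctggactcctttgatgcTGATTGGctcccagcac
H2-DMb1, chr17:34153084-34153144, plus strand: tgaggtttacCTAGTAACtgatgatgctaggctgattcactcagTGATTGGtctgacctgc

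The gap between both motifs was 26 bases in H2-Aa, 25 in H2-Eb1 and 26 in H2-DMb1. The motifs were chosen after these promoters had been read, so their presence here is a description. Of 32,851 promoters of 300 bases in the same table, CTNGNAAC was found on either strand in 13.2% and TGATTGG in 7.82%. The order shown, on the same strand with a gap of 10 to 30 bases, was found in 25 promoters of 23 genes, or 0.0761%. Neither motif was found in the windows held for Ctss and H2-DMa. The H2-DMa windows begin at 34122582 and 34125268, inside the span of the gene, and do not reach its first position at 34119693. Other promoters of H2-DMa were not examined. Among the other genes of the class II region, H2-Ob had the same order with a gap of 23 bases.

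All 8 probes were well above background, meaning that the scanner software told their signal from that of the local background, in all 28 channels. Over all probes, 55.2% to 77.2% of the spots of a channel met this condition and no spot was saturated. Ddx3y, on the Y chromosome, and Xist, expressed from the inactive X, took the direction of the labelled sexes on 6 of 6 arrays that compared the sexes. The replicate differences of comparisons that close a loop correlated at r = 0.91 (3 wk) and 0.90 (4 wk) over 20,445 probes, as arrays of the same replicate number would if they were made from the same pools, and the arrays were not independent. Neither the labels nor the study states that pools were reused. Comparisons that share a group were read as sharing its pools. Of 4 slides, those with the comparisons of the sexes and with M8/M3 had an earlier scan day than those with M8/M4 and the female comparisons.

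The set had its largest sex difference at 8 wk, with a median log2 ratio of male over female of -0.60 there, after -0.16 for the pools of 3 wk and -0.03 for those of 4 wk. In M8/F8, all 8 genes were below 0 on both arrays, beside a median of 0.01 for all probes above background. H2-Ab1, Cd74 and Ctss were called lower in male than in female liver at 8 wk. In female liver H2-Ab1, Cd74 and H2-Eb1 rose from 3 to 8 wk. In male liver no gene of the set was called with age, although H2-Ab1 and Ctss (M8/M4) and Cd74 (M8/M3) had a limma adjusted p below 0.05 at ratios under the threshold. A liver RNA pool holds many cell types, and fewer class II positive cells and less RNA per cell cannot be told apart.

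**Figure D1:**
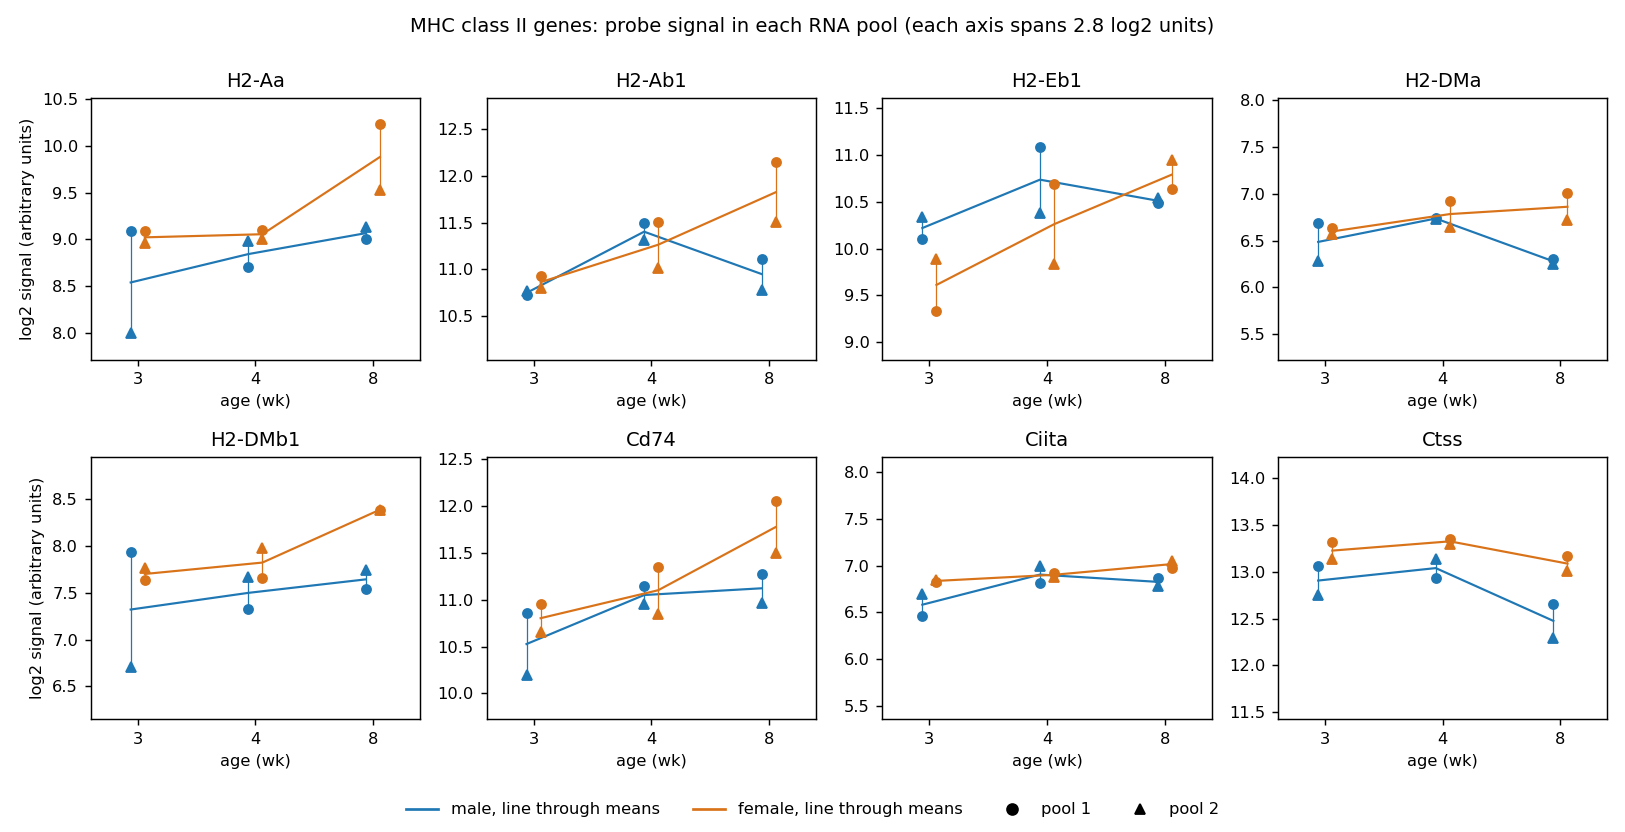
Probe signal of the 8 genes (y axis, log2 of the processed signal in arbitrary units, normalized between arrays) against age (x axis, wk) in male (blue) and female (orange) liver. Circles and triangles are pools 1 and 2, each averaged over the arrays of its group and replicate number, and lines join the group means. F8 had the highest mean for 7 of the 8 genes, and the 2 M3 pools lie far apart for H2-Aa and H2-DMb1.

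A gene was called where the limma adjusted p (Benjamini-Hochberg, over all probes and comparisons) was below 0.05, the ratio was above 1.5 or below 0.667, and the probe was well above background in both samples of at least 1 group. In M8/F8, 3 of 8 genes were called lower, beside 3.5% of the 23,289 probes above background in that comparison, and 1 of 8, H2-Ab1, was called without the second M8/F8 array. In F8/F3, 3 of 8 genes were called higher, beside 5.32% of probes, and in F8/F4, 1 of 8 was called higher, beside 2.43% of probes, with 2 called without the first F8/F4 array and 0 without the second. No gene of the set was called by limma in M3/F3, M4/F4, M8/M3 or M8/M4, where 0.464%, 1.44%, 16.8% and 10.1% of probes were called in either direction. At an unadjusted p below 0.05, 2, 2, 3 and 3 of the 8 genes passed in these 4 comparisons. With the error-weighted average of the 2 arrays in place of limma, 1 gene was called in M3/F3 and 0 in the others. M8/F8 and F8/F3 appear to share the F8 pools, so that the female excess and the rise in female liver are not independent readings.

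**Figure D2:**
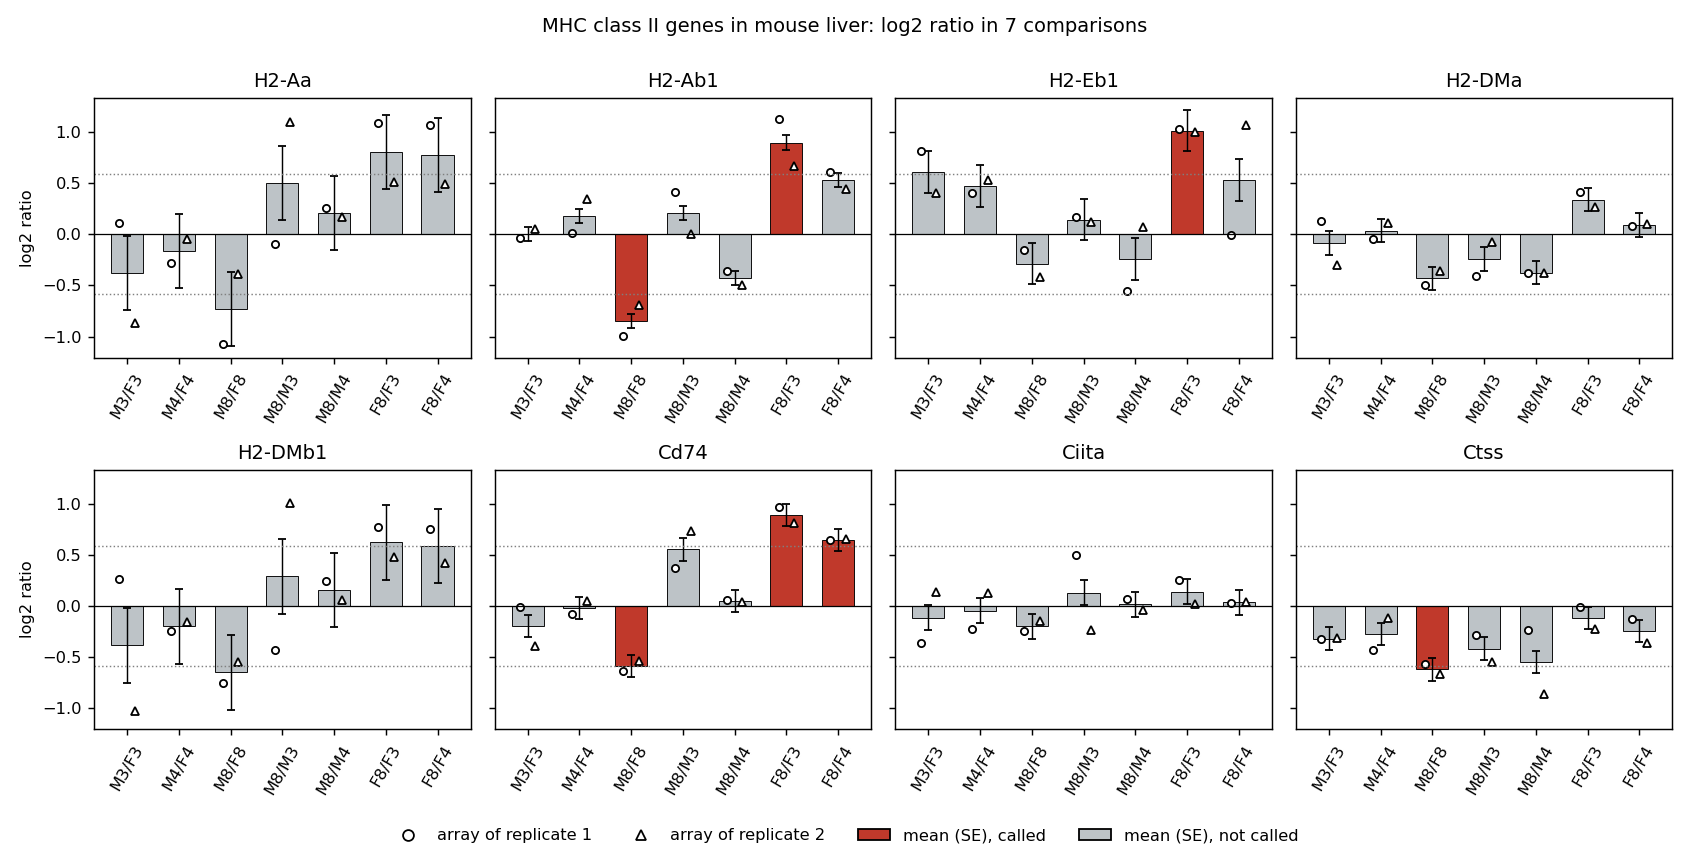
Log2 ratio (y axis) of the 8 genes in the 7 comparisons (x axis). Bars are the means of 2 arrays with the SE of the fit, red where called, circles and triangles are the arrays of replicates 1 and 2, and dotted lines mark a ratio of 1.5 in either direction. All 8 genes are below 0 on both arrays of M8/F8, and the red bars are in M8/F8, F8/F3 and F8/F4.

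H2-Ab1, the beta chain of the I-A dimer, had the lowest limma adjusted p of the set in M8/F8 and in F8/F3. Its log2 ratio in M8/F8 was -0.997 and -0.69 on the 2 arrays, with a fitted mean of -0.85 ± 0.07 (SE, n = 2; limma adjusted p = 6.53e-04). This is a signal 1.80-fold higher in F8. Both arrays lay below 0 and past the threshold of the ratio. In F8/F3 its ratios were 1.13 and 0.66 (mean 0.90 ± 0.07, limma adjusted p = 5.28e-04), and in F8/F4 they were 0.61 and 0.44. The F8/F4 mean of 0.53 had a limma adjusted p of 0.00364 but a ratio of 1.44, below the threshold. In male liver, the values were 0.41 and 0.00 in M8/M3 and -0.36 and -0.50 in M8/M4 (mean -0.43, limma adjusted p = 0.00815, a ratio of 0.743). On both arrays H2-Ab1 lay above 0 in F8/F4 and below 0 in M8/M4. Without the first F8/F4 array the F8/F4 mean was 0.59 and was called (limma adjusted p = 0.0209). At the younger ages the ratios of the sexes were -0.04 and 0.05 in M3/F3 and 0.01 and 0.34 in M4/F4.

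The level of H2-Ab1, as log2 signal of its probe, was 12.14 and 11.504 in the 2 F8 pools, 11.49 and 11.31 in M4, 11.51 and 11.02 in F4, 11.115 and 10.78 in M8, 10.93 and 10.80 in F3, and 10.73 and 10.77 in M3. F8 did not overlap M4, the next group in the order of the means, but its lower pool lay just under the higher F4 pool. F3 did not overlap M3, and the neighbours between them overlapped. With the second probe of the gene, described next, F8 and M4 overlapped.

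A second probe of H2-Ab1, which carries another accession on the array and was assigned to the gene through the study's probe table, overlaps the first by 51 of 60 bases. The probes differ at 1 base of the overlap, T51C, counted from the 5′ end of the first probe. The stretch around it is shown because the probes of H2-Ab1, the gene with the lowest limma adjusted p of the set in M8/F8, differ there. The differing base is in capitals.

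H2-Ab1 first probe, bases 36 to 60: acaaataaacgagacTcagactctg
H2-Ab1 second probe, same stretch: acaaataaacgagacCcagactctg

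Over the 14 arrays the ratios of both probes correlated at r = 0.99, and the largest difference between them was 0.22 (log2). The second probe gave -0.98 and -0.68 in M8/F8, 1.27 and 0.86 in F8/F3. For F8/F4 it gave 0.61 and 0.57. It was called in the same comparisons as the first and also in F8/F4 (mean 0.59, limma adjusted p = 0.00403), where its ratio of 1.504 lay just past the threshold. In M4/F4 it was higher in male liver, at 0.13 and 0.50 (mean 0.32, limma adjusted p = 0.0417), under the threshold of the ratio.

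H2-Aa encodes the alpha chain that pairs with the product of H2-Ab1. Its ratios in M8/F8 were -1.07 and -0.39, and the mean of -0.73 ± 0.36 (SE, n = 2) did not pass the test (limma adjusted p = 0.265). The arrays of F8/F3 gave 1.09 and 0.51, those of F8/F4 1.06 and 0.49. All of these arrays lay on the same side of 0 as those of H2-Ab1, but the SE was 0.36 in place of 0.07. The arrays of M3 differed most, at 0.11 and -0.86 in M3/F3 and -0.10 and 1.099 in M8/M3. The level in the M3 pools was 9.08 and 7.99, in F8 10.23 and 9.53, in M8 8.999 and 9.13, in F4 9.10 and 9.005, in F3 9.09 and 8.96, and in M4 8.70 and 8.98. F8 stood above all other groups without overlap, and the others overlapped their neighbours. Without both arrays that hold the second M3 pool, a choice made after seeing the data, H2-Aa was called in M8/F8, F8/F3 and F8/F4, with limma adjusted p of 0.0276, 0.0226 and 0.0239 at the same ratios.

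H2-Eb1, the beta chain of the I-E dimer, rose in female liver from 3 to 8 wk, at 1.02 and 1.00 on the 2 arrays (mean 1.01 ± 0.20, SE, n = 2; limma adjusted p = 0.0182). This was a ratio of 2.02, beside 1.86 for the first and 2.10 for the second probe of H2-Ab1. In F8/F4 the arrays gave 0.00 and 1.06, and in M8/F8 they gave -0.15 and -0.42, neither mean passing the test (limma adjusted p = 0.148 and 0.468). At the younger ages the gene lay above 0 in male over female liver, at 0.81 and 0.40 in M3/F3 and 0.41 and 0.53 in M4/F4. Neither mean passed the test (0.61, limma adjusted p = 0.105, and 0.47, limma adjusted p = 0.197), although M3/F3 was called with 6 group means (limma adjusted p = 0.0195), with the error-weighted average and without either F8/F4 array (0.0467 and 0.0458), and F8/F4 without the first F8/F4 array (mean 0.97, 0.036). The level was 9.34 and 9.89 in F3, below both M3 pools at 10.10 and 10.34, and 10.64 and 10.95 in F8. The F4 pools lay 0.85 apart and the M4 pools 0.70 apart, and all neighbours other than M3 and F3 overlapped. The rise in F8/F3 was not called without the first or the second F8/F3 array (limma adjusted p = 0.172 and 0.0622), nor without both arrays of the second M3 pool (0.0585).

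Cd74, the invariant chain, was called in 3 comparisons. In M8/F8 it was -0.64 and -0.54 (mean -0.59 ± 0.11, SE, n = 2; limma adjusted p = 0.0133), in F8/F3 0.96 and 0.81 (mean 0.89, limma adjusted p = 0.00275), and in F8/F4 0.64 and 0.65 (mean 0.65, limma adjusted p = 0.00938). The 2 arrays of each of these comparisons lay close together. The ratio in M8/F8, 0.664, was just inside the threshold, and with 6 group means it was -0.58 on the log2 scale and just outside. In male liver Cd74 was 0.37 and 0.73 in M8/M3 (mean 0.55, limma adjusted p = 0.0171, a ratio of 1.47), just under the threshold of the ratio. It was called there without the first M8/M3 array (0.74, limma adjusted p = 0.0267), and was 0.33 without both arrays of the second M3 pool. In M8/M4 it was 0.06 and 0.04. The level was 12.05 and 11.51 in F8, above all other pools, then 11.28 and 10.97 in M8, 11.35 and 10.85 in F4, 11.15 and 10.95 in M4, 10.95 and 10.65 in F3, and 10.86 and 10.20 in M3. From M8 downward each group overlapped the next. The call in M8/F8 was lost without either of its arrays (limma adjusted p = 0.12 without replicate 1 and 0.0526 without replicate 2), and the call in F8/F4 likewise (0.0816 and 0.064).

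The chains of H2-DM did not pass the test in any comparison. H2-DMa was -0.50 and -0.36 in M8/F8 (mean -0.43 ± 0.11, SE, n = 2; limma adjusted p = 0.0509) and 0.41 and 0.27 in F8/F3. H2-DMa was below 0 in male liver with age, at -0.41 and -0.07 in M8/M3 and -0.37 and -0.38 in M8/M4 (mean -0.38, limma adjusted p = 0.0785). By the group means, its level was lowest in M8, at 6.31 and 6.25, and highest in F8, at 7.00 and 6.72. F8 overlapped F4, the next group, and M3 overlapped M8. H2-DMb1 was -0.75 and -0.55 in M8/F8, 0.77 and 0.48 in F8/F3. The arrays of F8/F4 gave 0.75 and 0.42. As with H2-Aa, the arrays of M3 stood apart, at 0.26 and -1.03 in M3/F3 and -0.43 and 1.01 in M8/M3, and the SE was 0.36. The H2-DMb1 level was 8.39 in both F8 pools, above all other groups, and 7.94 and 6.71 in the 2 M3 pools. Without both arrays of the second M3 pool, H2-DMb1 was called in M8/F8 and F8/F3 (limma adjusted p = 0.00557 and 0.00605).

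Ctss, the protease that trims the invariant chain, differed from the class II chains in having ratios below 0 on both arrays of all 4 comparisons of age. In M8/F8 it was -0.57 and -0.67 (mean -0.62 ± 0.11, SE, n = 2; limma adjusted p = 0.0117), and the sexes already differed in this direction at 3 wk (-0.32 and -0.31) and 4 wk (-0.43 and -0.12), without passing the test (limma adjusted p = 0.116 and 0.167). In M8/M4 the arrays gave -0.23 and -0.86, and the mean of -0.55 had a limma adjusted p of 0.0187 with a ratio of 0.684, just under the threshold, and past it without the first M8/M4 array (-0.78, limma adjusted p = 0.0112). In female liver the F8/F3 arrays gave -0.01 and -0.23, those of F8/F4 -0.13 and -0.36, and neither mean passed the test. The level was 12.65 and 12.30 in M8, below all other pools, whereas the other groups overlapped their neighbours between 12.75 and 13.35. Without the second M8/F8 array Ctss was at -0.43 in M8/F8 and was not called (limma adjusted p = 0.116).

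Ciita, the coactivator of class II transcription, had the smallest spread of the set together with Ctss, with an SD over the 14 ratios of 0.23 for both. Its ratios in M8/F8 were -0.25 and -0.15 (mean -0.20, 95% CI -0.49 to 0.09), in F8/F3 0.26 and 0.02 (mean 0.14, 95% CI -0.15 to 0.43), and in M8/M3 0.50 and -0.24. No comparison passed the test. Its level was 6.98 and 7.05 in F8, and 6.46 and 6.70 in M3, the lowest group, which did not overlap the next.

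Whether the change with age differed between the sexes was tested as the difference of M8/M3 and F8/F3 and of M8/M4 and F8/F4. All 8 genes were below 0 in both, with medians of -0.34 and -0.52. H2-Ab1 was called in both, beside 1.55% and 0.543% of probes called lower. Its difference was -0.71 and -0.66 on the 2 replicates of the former (mean -0.69 ± 0.10, limma adjusted p = 0.015) and -0.97 and -0.94 on those of the latter (mean -0.96 ± 0.10, limma adjusted p = 0.0105). H2-Eb1 had a difference of -0.87 and -0.77, H2-DMa of -0.58 and -0.47, and Cd74 of -0.34 and -0.60, none passing the test. Ciita was at -0.01 and -0.02.

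M8/M3 and F8/F3 were scanned on different days. The same difference can be read from the arrays of the sexes, which were scanned on the same day, as M8/F8 minus M3/F3 and M8/F8 minus M4/F4. On this reading, added after seeing the data, H2-Ab1 was at -0.85 and -1.02 and passed the test (limma adjusted p = 0.00754 and 0.00996). Both readings gave the same sign for 8 of 8 genes, and they differed by at most 0.24 for the 3 wk mice and 0.13 for the 4 wk mice. Both contrast the same groups, apparently with the same pools, so such likeness was largely fixed in advance. The second reading is therefore not independent of the first. The H2-Ab1 differences were not called with the shared pools in the covariance (limma adjusted p = 0.0664 and 0.0642) or with no dye term (0.156 and 0.0964). From 3 wk, the call was also lost without the first or second M8/M3 array or the first F8/F3 array (0.0535, 0.0822 and 0.0792) and without both arrays of the second M3 pool (0.0827), and with the error-weighted average, where the difference was -0.67 and H2-Eb1 was called in its place, and from 4 wk without the second F8/F4 array (0.0527). Without both arrays of the second M3 pool, H2-DMa and H2-DMb1 were called from 3 wk (0.0275 and 0.0178) and Cd74 from 4 wk (0.0405).

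**Figure D3:**
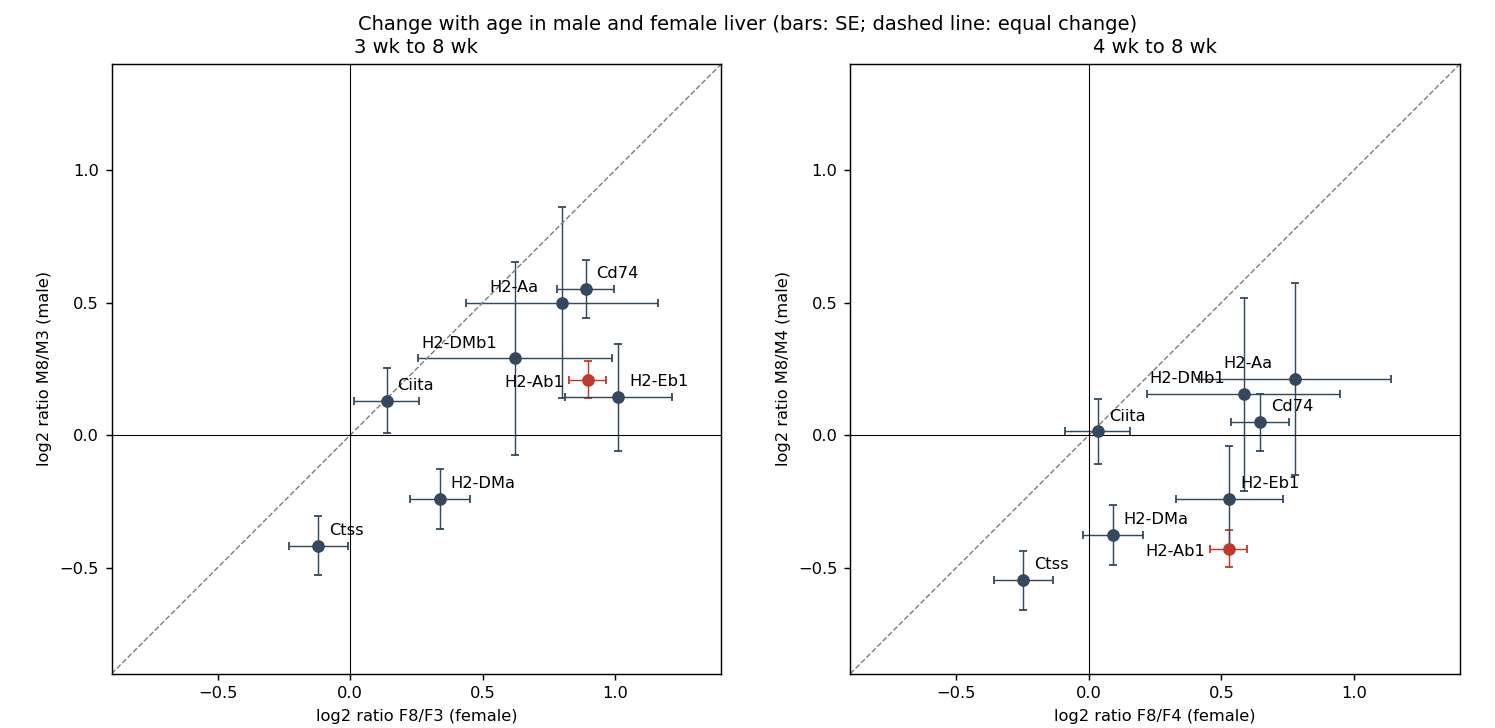
Log2 ratio of 8 wk over the younger age in male liver (y axis) against that in female liver (x axis), from 3 wk (left) and from 4 wk (right). Bars are SE, the dashed line marks an equal change in both sexes, and red marks a called difference. All 8 genes lie on or below the line, with H2-Ab1 farthest below it from 4 wk at -0.96 and Ciita on it.

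The members differed in how closely they moved together. Over the 14 arrays, which appear to share pools, H2-Aa and H2-DMb1 correlated at r = 0.97, H2-Aa and Cd74 at 0.91, and H2-Ab1 and Cd74 at 0.83. H2-Eb1 correlated at 0.80 with H2-DMa but at 0.31 with H2-Aa. Against the mean of the other 7 genes, Cd74 had the highest correlation (0.94) and Ciita the lowest (0.26). The levels of the 2 M3 pools differed by 1.09 for H2-Aa and 1.23 for H2-DMb1, by 0.66 for Cd74 and by 0.04 for H2-Ab1. In the same pools the summed signal of 9 T cell markers was 2108 and 1515 and that of 5 leukocyte markers 2635 and 2392. The sums were 40,890 and 36,620 for Kupffer cell, 415.9 and 404.9 for dendritic cell and 2859 and 2929 for B cell markers, the last higher in the second pool, and their part in the result was not tested.

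The genes most like the mean of the 8 members were ranked by Pearson's r over the 14 ratios among 12,290 genes well above background in every channel. The first 10 were Ap4b1 (r = 0.97, Spearman's rho = 0.94), Gimap3 (r = 0.97, rho = 0.96), Alad (0.96, 0.93), Cyp2c54 (0.96, 0.92), Itgb7 (0.95, 0.94), Fcgr4 (0.95, 0.96), Cyp2c38 (0.95, 0.92), Slc5a6 (0.94, 0.97), Rdh16 (0.94, 0.83) and Acadm (0.94, 0.94). Gimap3, Itgb7 and Fcgr4 are genes of immune cells, while Alad, Cyp2c54, Cyp2c38, Rdh16 and Acadm encode metabolic enzymes. Their ratios in M8/F8 ranged from -0.18 for Alad to -1.70 for Cyp2c54.

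Of 55 genes on 5 lists, 54 had a probe. In M8/F8, 49 were above background, of which 0 were called higher and 1 lower, beside 6.31% of all probes in either direction. In F8/F3, 3 of 50 were called higher and 2 lower, beside 10.8% of probes. In M8/M3, 1 of 49 was called higher and 2 lower. The remaining comparisons of age gave 2 higher and 0 lower of 51 (F8/F4, beside 5.41% of probes) and 1 higher and 2 lower of 51 (M8/M4). At the younger ages, 0 of 49 were called in M3/F3 and 1 of 49 was lower in M4/F4. The difference of M8/M3 and F8/F3 was called for 3 of 50 genes, beside 3.22% of probes, and that of M8/M4 and F8/F4 for 0 of 52, beside 1.34%.

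The gene called in M8/F8 was Cd83, a surface protein of mature dendritic cells and activated B cells that holds class II on the membrane. Its log2 ratio was -1.34 and -1.14 in M8/F8 (mean -1.24, limma adjusted p = 9.16e-04), 1.04 and 1.23 in F8/F3 (mean 1.14, limma adjusted p = 0.00124), and 0.59 as a mean in F8/F4 (limma adjusted p = 0.0147). It was also lower in M4/F4, at a mean of -0.63 (limma adjusted p = 0.0118). The M4/F4 call was lost without its first array (-0.49, limma adjusted p = 0.124) and after normexp and loess (-0.53), and the F8/F4 call without either of its arrays (0.136 and 0.0651) and after normexp and loess (0.50). Like H2-Ab1, Cd83 was lower in M8 than in F8 and higher in F8 than in F3. Of the other costimulatory genes, Cd40 fell with age in both sexes, by 1.01 in M8/M3, 0.90 in M8/M4 and 0.65 in F8/F3 on the log2 scale (limma adjusted p = 0.0018, 0.00287 and 0.00979), but by 0.36 in each and without a call after normexp background correction and loess. The F8/F3 call of Cd40 was also lost without either F8/F3 array (0.0893 and 0.0626) and with shared pools (0.0694). Cd80, Cd86 and Icosl were not called, and Pdcd1lg2 was not well above background in any group.

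Among the other genes of the class II region, none was called in any comparison. H2-Ob, the beta chain of the H2-DM inhibitor H2-DO, was -0.47 and -0.31 in M8/F8 (mean -0.39, limma adjusted p = 0.0394) and 0.73 and 0.33 in F8/F3 (mean 0.53, limma adjusted p = 0.0122), both under the threshold of the ratio. H2-Eb2 and H2-DMb2 were not well above background in F8 or M8.

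Of 11 genes of endosomal processing, Marchf8 was the one called. Marchf8 is a ubiquitin ligase known to remove membrane proteins, and it rose in male liver, at 0.88 and 0.65 in M8/M3 (mean 0.77, limma adjusted p = 9.09e-04) and by a mean of 0.71 in M8/M4 (limma adjusted p = 0.00119). Female liver gave 0.12 and 0.08 in F8/F3, and the sexes differed by 0.67 (limma adjusted p = 0.017), a call lost without the first M8/M3 array (0.0986) or either F8/F3 array (0.0939 and 0.0771). Marchf1, the ligase known for class II in dendritic cells, was at -0.01 in M8/F8. Of the regulators, the interferon gamma receptor chain Ifngr1 fell from 3 to 8 wk in both sexes, by 0.72 in male and 0.67 in female liver on the log2 scale (limma adjusted p = 3.71e-04 and 4.83e-04). Ifng itself was called lower in M8/M4 (limma adjusted p = 0.0393), where M8 was not well above background on any array and the signal was at least 1.46-fold lower, and this call was lost with the replicate block (0.0602) and without either M8/M4 array (0.162 and 0.221). Rfx5, a subunit of the factor that binds the X box, was -0.44 and -0.84 in M8/F8 (mean -0.64, limma adjusted p = 0.0694).

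In MHC class I presentation, 16 genes were measured and none was called in M8/F8, whose median was -0.28. B2m, the light chain of class I, rose in F8/F3 at 0.41 and 0.80 (mean 0.60, limma adjusted p = 0.00189), but was at 0.51 and not called without the second F8/F3 array. Nlrc5, the coactivator of class I genes and a relative of Ciita, rose in F8/F3 at 1.17 and 0.73 (mean 0.95, limma adjusted p = 0.0104) and in F8/F4 at 0.98 and 0.39 (mean 0.68, limma adjusted p = 0.0352, and 0.0548 with the replicate block). The rise of Nlrc5 in F8/F3 was not called without either F8/F3 array (0.83 and 1.07). Its call in F8/F4 was lost with no dye term (limma adjusted p = 0.0592) and without either F8/F4 array (0.48 and 0.89). The class I median in F8/F3 was 0.18, beside 0.71 for the 8 class II genes and 0.02 for all probes above background.

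Markers of the cell types a liver pool can hold were read beside the class II genes. In M8/F8 the 5 markers of all leukocytes were below 0, with a median of -0.52 and none called. Of 10 Kupffer cell and macrophage markers 5 were called lower, with a median of -0.58, among them Marco (-1.05), Timd4 (-0.67) and Adgre1 (-0.65). Without the second M8/F8 array 4 of these 5 calls were lost, with Marco at -0.89, Timd4 at -0.49 and Adgre1 at -0.41 (limma adjusted p = 0.102, 0.116 and 0.224). Of 7 dendritic cell markers above background 2 were called lower, Clec9a (-0.83, limma adjusted p = 3.1e-04) and Klrd1 (-0.70), which NK cells also express, while Flt3 was at 0.50. After normexp and loess neither was called, with Clec9a at -0.33 and Klrd1 at -0.50, and Klrd1 was also lost without the first M8/F8 array (-0.52). The Clec9a call was also lost when both groups had to be well above background. Its M8 signal did not meet this on both M8/F8 arrays, so the ratio depends on a signal near background. The NK cell markers had a median of -0.36 with 1 of 4 called lower, Gzmb (-0.99), which was lost without the first M8/F8 array (-0.76, limma adjusted p = 0.115). Of the monocyte markers 2 of 4 were called lower, with a median of -0.47. Chil3 (-1.25) was lost after normexp and loess (-0.58) and without either M8/F8 array (-0.94 and -1.56). Fn1 (-0.66) was lost with no dye term (limma adjusted p = 0.0514). The monocyte list summed to a signal of 88,330 and 101,700 in the F8 pools, beside 2593 and 2271 for the leukocyte list. It may therefore not stand for monocytes alone. Of the T cell markers 1 of 7 was called lower, Cd3g (-0.86, but -0.45 and not called after normexp and loess), with a median of -0.30. Of 9 B cell markers, 6 were above background and none was called in M8/F8, with a median of -0.16 and 1 of 6 above 0. Of these markers Cd79a and Blk were not well above background on any M8 array, nor Pax5 and Blk on any F8 array. The sinusoidal endothelial markers, 7 in number, had a median of -0.10 with none called. In the erythroid list 1 of 3 markers was called, Alas2, higher in male liver (1.89). No marker of plasmacytoid dendritic cells, neutrophils, mesenchymal cells, bile ducts or hepatocytes was called in M8/F8.

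The summed signal of the leukocyte markers was 2593 and 2271 in the F8 pools and 1852 and 1759 in the M8 pools. For the Kupffer cell markers it was 41,420 and 38,700 in F8 against 30,250 and 24,660 in M8, and for the dendritic cell markers 452 and 415 against 343.9 and 334.4. The B cell markers summed to 3373 and 3799 in F8 and to 2807 and 2949 in M8. F8 lay above M8 without overlap for these lists, but also for 15 of all 19 pathway and marker lists, those of sinusoidal endothelium, neutrophils and mesenchymal cells among them, and below M8 for 2, the bile duct and erythroid lists. The sum for the 8 class II genes was 21,370 and 17,320 in F8 and 13,480 and 11,250 in M8. All 8 members lay above M8 in both F8 pools, as did 25.7% of the probes above background in M8/F8. The sum over F8 was 1.56 times that over M8 for the members, below 1.63 times for the costimulatory list. It was 1.46 times for Kupffer cell, 1.39 times for NK cell, 1.35 times for leukocyte and 1.32 times for monocyte markers. Dendritic cell markers gave 1.28 times, B cell markers 1.25 times and neutrophil markers 1.23 times. For mesenchymal and sinusoidal endothelial markers it was 1.14 and 1.104 times. A lower sum in M8 was thus also found for lists of other cells, by ratios of different size, and the part of these markers in the result was not tested.

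In F8/F3 the leukocyte markers were all below 0, with a median of -0.21 and none called, and the Kupffer cell markers had a median of -0.15 with 1 called lower. The dendritic cell median was 0.11 and the B cell median 0.09, with 0 of 7 dendritic cell markers called, and with 0 of 6 B cell markers called higher and 1 lower, Cr2 (-0.72). The Cr2 call was lost with shared pools (limma adjusted p = 0.103), after normexp and loess (-0.39) and without either F8/F3 array (0.202 and 0.102). Leukocyte marker sums were 2743 and 2934 in the F3 pools, above both F8 pools, Kupffer cell sums were 47,030 and 44,800, and dendritic cell sums were 437.7 and 421.4, within the range of F8. B cell sums, at 2903 and 2793 in F3, were below both F8 pools. Larger decreases were found for markers of other cells. Of the neutrophil markers 4 of 5 were called lower in F8/F3 (median -2.56), of the erythroid markers 3 of 4 (median -1.30) and of the monocyte markers 2 of 4 (median -1.11). Of the NK cell markers 2 of 5 were called lower (median -0.38), of the mesenchymal markers 2 of 5 (median -0.35), of the bile duct markers 1 of 5 (median -0.54) and of the sinusoidal endothelial markers 1 of 7 (median -0.16). Without either F8/F3 array the NK cell calls (Gzma, with limma adjusted p = 0.184 and 0.0983, and Gzmb, 0.232 and 0.0621), the bile duct call (Sox9, 0.297 and 0.0601) and the endothelial call (Lyve1, 0.0636 and 0.221) were lost, Sox9 also with the replicate block (0.0547). The T cell, plasmacytoid dendritic cell and hepatocyte markers had medians of -0.18, -0.10 and -0.10 with none called. No marker list had a gene called higher in F8/F3, and the part of these changes in the result was not tested.

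**Figure D4:**
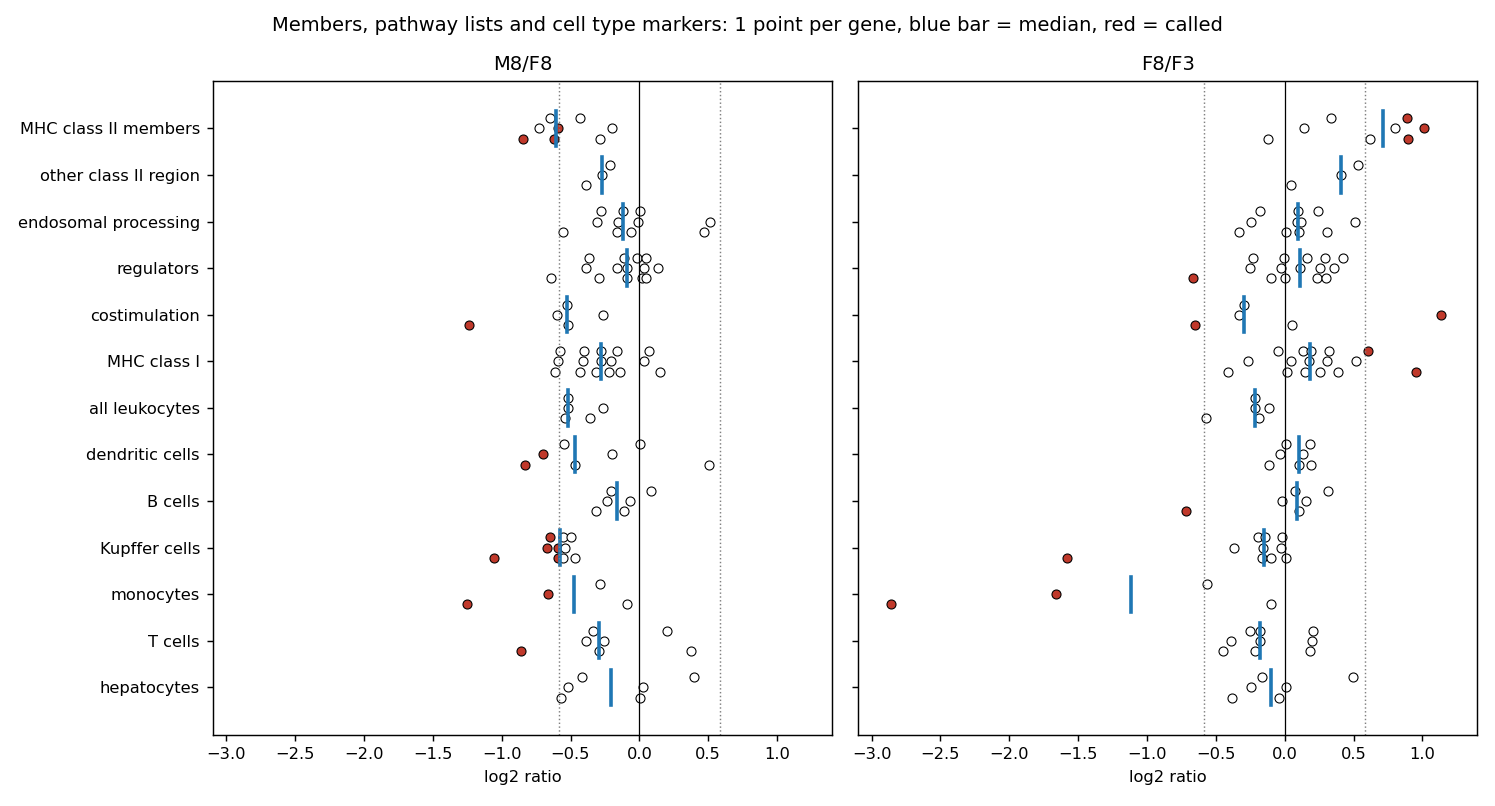
Log2 ratio (x axis) in M8/F8 (left) and F8/F3 (right) of the 8 class II genes, the other pathway lists and part of the marker lists (y axis). The marker lists drawn are those of all leukocytes, dendritic cells, B cells, Kupffer cells, monocytes, T cells and hepatocytes. Each gene above background is a point, red where called. Blue bars mark the median of each list and dotted lines a ratio of 1.5 in either direction. In M8/F8 the class II median of -0.60 lies beside that of Kupffer cells at -0.58, whereas in F8/F3 the class II median of 0.71 has no marker list near it.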

How the data were processed

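Liver RNA pools of 6 groups were compared on 14 two-colour Agilent whole mouse genome arrays. The deposited log10 ratios of red over green came from the authors' Feature Extraction (10.7.1.1) output, background-subtracted and dye-normalized (linear and LOWESS). The deposited intensity of each channel was used for levels and for the normexp (offset 50) alternative. Deposited flags of 0 or 1 marked spots well above background and outliers, and the other deposited columns used name the probes. The deposited error score of each log10 ratio entered the error-weighted average. Ratios were converted to log2, turned by the dyes in the labels to male over female or older over younger, and averaged over spots of a probe. The methods name the opposite dyes for the first M3/F3 array. The labels were followed, after the check with Ddx3y and Xist. Levels were quantile normalized on the mean of both channels. Genes were named through RefSeq accessions (26,055 of 39,429 probes). Ratios were fitted in R 4.3.3 with limma 3.58.1 (files read with the package data.table, version 1.17.8), with 7 comparisons and 1 dye term per probe, and tested on simulated data. The members and lists were chosen with earlier results of these data known. All 8 members, called genes of the pathway lists (at most 4 per list and comparison), up to 3 markers per list and the 10 genes most like the members were named. The number of arrays limits the precision. P-values rest on the spread left over all 14 arrays after the dye term, and not on the spread between the 2 pools of a group. Within each replicate number, F8, M3 and M4 always carried the same dye. The dye term can therefore take up differences between pools, and an SE can be smaller than the spread of the pools. Alternatives covered background correction, centring, the dye term, replicate and slide blocks, group means, shared pools, filters on dim probes, adjustment, the fold threshold, the error model, outliers, probes and leaving out each array.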

Additional observations from a re-analysis of the deposited data

Results flagged for a closer look

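The change with age differed between male and female liver past the test, as an interaction in limma, for H2-Ab1 of the set and for genes of the lists. For H2-Ab1, M8/M3 minus F8/F3 was -0.69 (limma adjusted p = 0.015) and M8/M4 minus F8/F4 was -0.96 (limma adjusted p = 0.0105), and both calls were lost with shared pools in the covariance (0.0664 and 0.0642) and with no dye term (0.156 and 0.0964). Cd83 had a difference of -1.11 from 3 wk (limma adjusted p = 0.0152). For Psmb9, a subunit of the immunoproteasome, it was -0.59 from 3 wk (limma adjusted p = 0.0124), and this call was lost with no dye term (0.123). For Marchf8 it was 0.67 from 3 wk (limma adjusted p = 0.017). Clec9a, a receptor of cross-presenting dendritic cells, had differences of -1.01 from 3 wk (limma adjusted p = 0.00223) and -0.66 from 4 wk (limma adjusted p = 0.015), which were -0.31 and -0.35 after normexp and loess and then not called. The Clec9a call from 4 wk was also lost with shared pools (0.207), with the error-weighted average and without the second M8/M4 array or either F8/F4 array. For Flt3, a receptor of dendritic cell progenitors, the difference was 0.68 from 3 wk (limma adjusted p = 0.0318), and it was 0.29 and not called after normexp and loess. The Flt3 call was also lost with no dye term (0.133), the slide block (0.0827), 6 group means and the error-weighted average, on the arrays of the sexes (0.0564), and without any single array of M8/M3 or F8/F3 (0.0946 to 0.155), M3/F3 or F8/F4. Cd83, Psmb9 and Marchf8 were each not called without at least 1 array of M8/M3 or F8/F3. Of markers of other cell types, S100a8, a neutrophil and monocyte protein, had a difference of 0.72 from 3 wk (limma adjusted p = 0.0213), lost with shared pools (0.106) and without any single array of M8/M3 or F8/F3 (0.0796 to 0.11). For Alas2, the erythroid enzyme of heme synthesis, it was 1.64 from 3 wk (limma adjusted p = 0.0134), lost without either M8/M3 array (0.068 and 0.0758).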

How the results depend on the processing

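No called ratio of a member, or of a list gene that was called, changed sign under the alternatives tried. Class II genes called numbered 5 in place of 3 in M8/F8 and in F8/F3, 2 in place of 1 in F8/F4 and 1 in place of 0 in M3/F3 with the error-weighted average at an unadjusted p below 0.0001. With no threshold on the ratio they were 2 in F8/F4, 1 in M8/M3 and 2 in M8/M4, and the calls of the other lists over the 7 comparisons were 263 in place of 115. With 6 group means there was 1 call in M3/F3 and 2 in each interaction of sex and age. There were 0 in each interaction with no dye term, and likewise when the covariance held a term for shared pools. Leaving out arrays gave 1 to 5 calls in M8/F8, 0 to 2 in F8/F4, 0 to 1 in M3/F3, M8/M3 and M8/M4, and 0 to 2 in each interaction, where 5 in M8/F8 came without the second M3 pool and 1 without the second M8/F8 array. In F8/F3, the H2-Eb1 call was lost without either F8/F3 array and without the second M3 pool, and in the latter case H2-Aa and H2-DMb1 were called. The cause of these shifts was not tested. Replicate numbers did not pair all comparisons, with correlations of replicate deviations from -0.47 to 0.83 over 21 pairs of comparisons, 9 of them above 0.1. With the replicate block the counts were 3 in M8/F8, 3 in F8/F3, 1 in F8/F4, 1 in each interaction and 0 elsewhere, no call of a member was lost or gained, and the other lists had 113 calls. All members were well above background throughout, and the filters on dim probes moved no count of members.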
